A study of Drosophila melanogaster with 2 samples.

Results

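Nucleolar and ribosome biogenesis factors are the proteins that make ribosomes: they transcribe ribosomal RNA, modify and cut it, and fold it with ribosomal proteins into the small and the large subunit. The list held 34 symbols, named by gene function with earlier results of these data known. It came to 33 genes, because CG9253 and pths are an older and the current symbol of 1 gene. A pair of members, with lethal-locus symbols in the table, are named here by their CG synonyms in RefSeq, CG12792 and CG5824. Of all members, 30 were found under the listed symbol in the authors' table and 2 (ns1 and ns2) with a different capital letter. The listed hoi was taken as the short form of hoi-polloi, which the table calls hoip. All 33 genes, of 14284 in the count tables, had at least 20 counts over both libraries. The Myc gene itself (dm) was not a member.

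The study compared type II neuroblast lineages of the Drosophila melanogaster larval brain with and without RNAi against brat, a translational repressor whose loss turns these lineages into tumours. There were 2 polyA RNA-seq libraries, 1 control and 1 brat RNAi. In both crosses the labels give UAS-dicer2, the drivers wor-Gal4 and asense-Gal4 and a membrane-bound GFP (UAS-CD8::GFP) from one parent, and tub-Gal80ts, a temperature-sensitive Gal4 inhibitor, from the other. The brat RNAi cross also carried the VDRC hairpin 105054. Animals were raised at 18 °C, shifted to 29 °C by the 3rd larval instar, and dissected 24 h later, and type II neuroblasts with their progeny of 24 h were sorted by fluorescence. The wor driver is active in neuroblasts of both types and the asense promoter in type I neuroblasts, and marking of type II lineages alone is often done with an asense-Gal80 in place of a Gal4. Taken as written, the labelled drivers would mark type I neuroblasts too, so the cell type of every value below rests on the sort as labelled. The number of brains behind each library is not given in the sources used here.

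The control library held 16566265 gene counts and the brat RNAi library 15236504. With 1 library per group there is no replicate check and no test, so every difference below describes these libraries and not the genotypes. The targeted gene brat had 12210 control counts and 6312 with brat RNAi, a log2 ratio of -0.69 (95% counting interval -0.73 to -0.65), the direction its label gives. Of the 8 markers of type II neuroblasts and their lineages, all were detected in both libraries. The gene ase, which type I neuroblasts express and type II neuroblasts lack, was also detected, with 1790 and 1236 counts, and intermediate progenitors express it too.

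Ribosomes begin in the nucleolus, where RNA polymerase I transcribes the ribosomal DNA into a long precursor RNA. Small nucleolar ribonucleoproteins (snoRNPs) then guide its modification: box C/D particles add methyl groups to ribose and H/ACA particles turn uridine into pseudouridine. The precursor is also cut, and helicases, GTPases and scaffold proteins help to fold it into the 2 subunits, which are exported to the cytoplasm. In flies Myc activates many of these genes, and a large nucleolus is a known feature of larval neuroblasts and of brat mutant tumours.

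Most ribosome biogenesis factors had more mRNA in the brat RNAi library, by modest amounts. Ratios are given as log2 of the brat RNAi over the control value, from counts divided by median-of-ratios size factors. They were above 0 for 31 of 33 genes (28 with scaling by total gene counts, 29 by upper quartile and 30 by TMM), with a median of 0.45 and a range from -0.34 to 0.95. Over all 9142 measured genes, those with at least 20 counts, the median was 0.00 and 50.4% lay above 0. Together the 33 genes took 0.659% (exact binomial 95% interval 0.655 to 0.662) of the control library's gene counts and 0.800% (0.796 to 0.805) with brat RNAi. After scaling by size factors their summed counts differed 1.34-fold, a log2 ratio of 0.422. With that scaling the summed counts of all measured genes were higher with brat RNAi too, at a log2 ratio of 0.141. In sorted bulk RNA, a different share of cells of a type and a different amount of RNA per cell cannot be told apart.

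No member was at least 2-fold apart, a call that also needed a counting interval excluding 0; among all measured genes 1.15% met that call as higher and 4.48% as lower. At 1.5-fold, 7 members (21.2%) were higher, against 5.93% of all measured genes, and none was lower, against 8.32%. The 7 genes were RpI1, RpI135, CG9253, Nop60B, Nopp140, nop5 and CG12792. With scaling by total gene counts only RpI1, RpI135 and CG9253 met this call (9.09% of members against 2.89% of all measured genes), and after correction for transcript length and level only CG9253, CG12792 and nop5 did (9.09% against 5.34%). The counting interval lay above 0 for 28 members (84.8%), against 30.7% of all measured genes, and below 0 for CG8801 and Bka, against 24.3% of all measured genes. Abundant genes have narrow intervals, and no member had a mean normalised count under 288. Among the 5415 measured genes at or above that level the median log2 ratio was 0.09, with 0.702% at least 2-fold higher, 0.148% at least 2-fold lower, 7% at least 1.5-fold higher, 1.39% at least 1.5-fold lower, 46.5% with an interval above 0 and 22.8% with one below 0. In the authors' deposited table RpI1 had an adjusted p of 0.609 and each of the other 32 members had 1, values that rest on 1 library against 1.

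**Figure D1:**
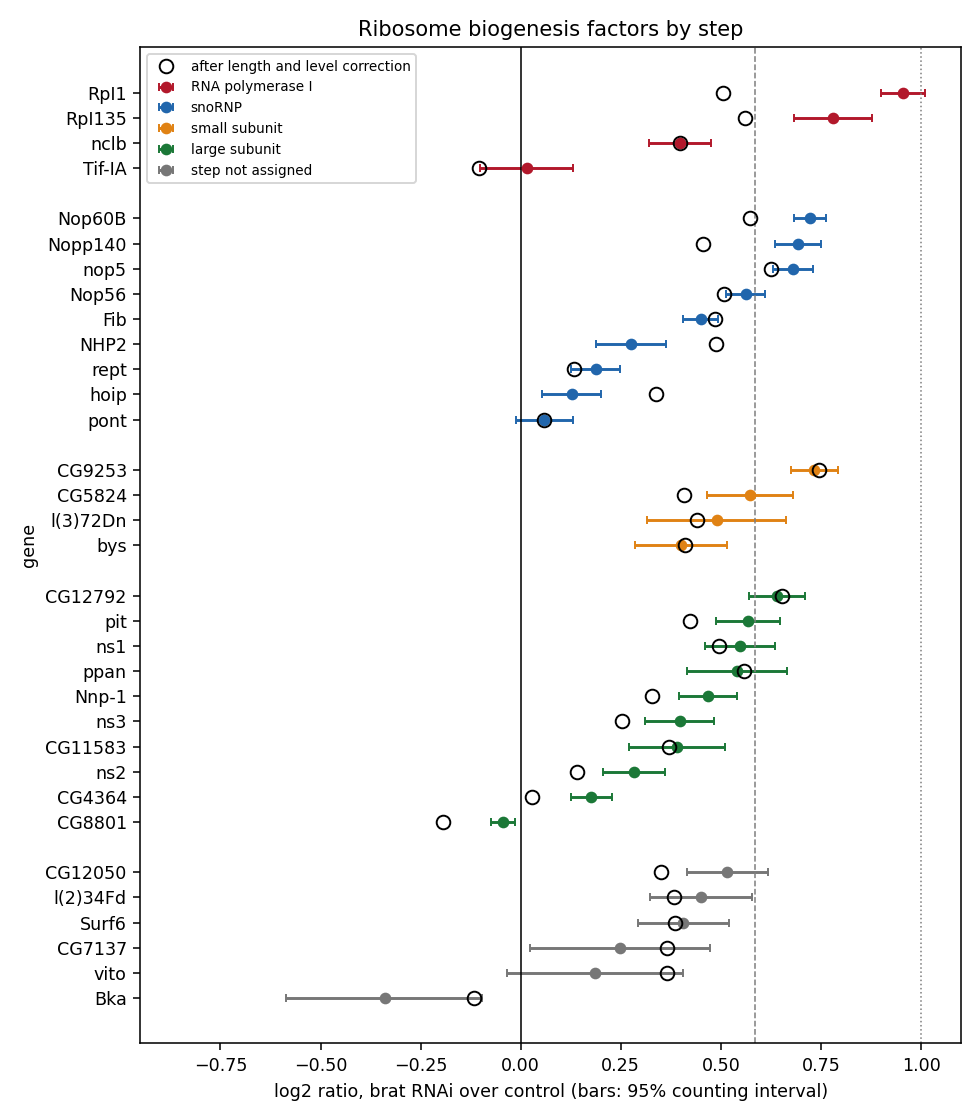
Log2 ratio of brat RNAi over control (x axis) for each of the 33 ribosome biogenesis factors (y axis), grouped by step; filled points are ratios with 95% counting intervals, open circles the ratio after correction for transcript length and level, and the dashed and dotted lines mark 1.5-fold and 2-fold. Of the 33 filled points 31 lie right of 0 (28 with scaling by total gene counts), RpI1 is farthest right at 0.95, and CG8801 and Bka lie left of 0.

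The catalytic core of RNA polymerase I gave the highest uncorrected ratios of the list; after correction for length and level CG9253, CG12792, nop5 and Nop60B were above both of its genes. RpI1 (current symbol Polr1A), its largest subunit, had 4178 control counts and 6755 with brat RNAi, a log2 ratio of 0.95 (0.90 to 1.01) or 1.94-fold, above that of 98.3% of measured genes. RpI135 (Polr1B), the second largest subunit, which forms the active site together with RpI1, had 1448 and 2075 counts and a log2 ratio of 0.78 (0.68 to 0.88). Both subunits were therefore higher by more than counting error.

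The other genes of the polymerase I step were less far apart. Tif-IA, the initiation factor that makes the polymerase competent and is a known target of growth signalling, had 1312 and 1106 counts and a log2 ratio of 0.02 (-0.10 to 0.13), an interval that holds 0; it was at -0.13 with total gene counts. The gene nclb, whose protein is the fly homolog of PWP1 and promotes transcription of ribosomal genes, had 2546 and 2799 counts, a log2 ratio of 0.40 (0.32 to 0.48). Per kilobase of transcript, the normalised count of RpI1 was 1.34 times that of Tif-IA in control cells and 2.57 times with brat RNAi. For RpI1 over RpI135 the same quotient was 2.03 and 2.28.

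The large subunits of other RNA polymerases were set beside these after the values were seen. RpII215, the largest subunit of polymerase II, had a log2 ratio of 0.48 (0.44 to 0.52), RpII140, its second largest, had 0.05 (0.01 to 0.09), and RpIII128, of polymerase III, had 0.42 (0.33 to 0.51). These genes, like RpI1 and RpI135, have long transcripts, and the ratio followed length in these libraries, as described below. After correction for length and level, RpI1 was at 0.50 and RpI135 at 0.56, while RpII215 was at 0.03, RpII140 at -0.30 and RpIII128 at 0.20.

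All 9 genes of snoRNPs and their assembly had a log2 ratio above 0 with size factors (7 with total gene counts, 8 by upper quartile), with a median of 0.45. For 8 of them (88.9%) the interval lay above 0, against 30.7% of all measured genes and 46.5% of those at or above the lowest member level. In the box C/D particle, the Nop58 homolog nop5 and its partner Nop56 form the scaffold that holds the guide RNA. The control library held 5840 counts of nop5 and the other library 7806, a log2 ratio of 0.68 (0.63 to 0.73). Nop56 had 6069 and 7473 counts, a log2 ratio of 0.56 (0.51 to 0.61). Fib, the methyltransferase fibrillarin, had 7888 and 8985 counts and a log2 ratio of 0.45 (0.41 to 0.49).

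The fourth core protein, hoip, binds the kink-turn of box C/D RNAs and also belongs to the U4 small nuclear RNP of the spliceosome. Its counts were 3110 and 2833, a log2 ratio of 0.13 (0.05 to 0.20), and with scaling by total gene counts it was at -0.01. The 4 box C/D core genes were thus all above 0 with size factors, but spread from 0.13 to 0.68. Per kilobase, the normalised counts of nop5 and Nop56 stood at a quotient of 0.927 in control cells and 1.01 with brat RNAi.

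In the H/ACA particle, Nop60B is the pseudouridine synthase, the fly homolog of dyskerin, and its uncorrected ratio was the highest of the snoRNP genes; after correction it was at 0.57, below nop5 at 0.63. It had 8750 and 12035 counts, a log2 ratio of 0.72 (0.68 to 0.76) or 1.65-fold. NHP2, which binds the H/ACA RNA beside it, had 2103 and 2124 counts, a log2 ratio of 0.28 (0.19 to 0.36). The nucleolar chaperone Nopp140, which carries snoRNPs between Cajal body and nucleolus, had 4277 and 5766 counts and a log2 ratio of 0.69 (0.64 to 0.75).

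The AAA+ ATPases rept and pont work together as a ring in snoRNP assembly and in chromatin remodelling. Their ratios were among the lowest of the snoRNP genes. The counts of rept were 4419 and 4198, a log2 ratio of 0.19 (0.13 to 0.25), and those of pont 3493 and 3036, a log2 ratio of 0.06 (-0.01 to 0.13). With scaling by total gene counts, rept was at 0.05 and pont at -0.08, and by upper quartile pont was at -0.05.

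The 4 genes of small subunit assembly were all higher, with a median log2 ratio of 0.53 and each interval above 0. An interval above 0 was found for 30.7% of all measured genes and 46.5% of those at or above the lowest member level. CG9253 (pths), a DEAD-box helicase homologous to DDX47, had 3912 and 5427 counts and a log2 ratio of 0.73 (0.67 to 0.79), the third highest of the list. Its exons overlap those of del by 10 bases in the BDGP6 annotation. CG5824, the homolog of Nop14 in the precursor particle of the small subunit, had 1295 and 1607 counts, a log2 ratio of 0.57 (0.47 to 0.68).

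An opposite-strand gene, P5cr-2, overlaps 29.3% of the exon sequence of CG5824, and the strand setting of the counting is not given in the sources used here. P5cr-2 itself had 44 and 37 counts. The gene l(3)72Dn, for which RefSeq lists the synonym UTP4, a protein of the same precursor particle, had 507 and 594 counts, a log2 ratio of 0.49 (0.32 to 0.66). The bystin gene bys, the Enp1 homolog, had 1173 and 1292 counts, a log2 ratio of 0.40 (0.29 to 0.52). The interval of l(3)72Dn, the scarcest of the 4, overlaps those of CG5824 and bys.

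The 10 genes of large subunit assembly had a median log2 ratio of 0.43. An interval above 0 was found for 9 of them (90%), against 30.7% of all measured genes and 46.5% of those at or above the lowest member level. CG12792, homologous to GRWD1, whose yeast relative is a chaperone of a large subunit protein, had 2894 and 3763 counts and a log2 ratio of 0.64 (0.57 to 0.71). The DEAD-box helicase pit (pitchoune), homologous to DDX18 and known in flies for its dependence on Myc, had 2287 and 2826 counts, a log2 ratio of 0.57 (0.49 to 0.65). The larval growth gene ppan (peter pan), homologous to yeast Ssf1, had 959 and 1164 counts, a log2 ratio of 0.54 (0.42 to 0.67). Nnp-1, the Rrp1 homolog, had 2879 and 3322 counts, a log2 ratio of 0.47 (0.40 to 0.54). CG11583, the homolog of Brix1, had 1089 and 1191 counts, a log2 ratio of 0.39 (0.27 to 0.51).

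The 3 nucleostemin GTPases of the list differed among themselves. The gene ns1, whose protein releases large subunits from the nucleolus, had 1943 and 2369 counts, a log2 ratio of 0.55 (0.46 to 0.63). The cytoplasmic GTPase gene ns3 of the Lsg1 family had 2097 and 2304 counts, a log2 ratio of 0.40 (0.31 to 0.48). The gene ns2 had 2661 and 2702 counts, a log2 ratio of 0.28 (0.21 to 0.36). The interval of ns1 does not overlap that of ns2, while that of ns3 overlaps both.

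A pair of abundant large subunit genes had ratios nearer to 0. CG4364, the homolog of Pescadillo, which is needed to process the large subunit RNA, had 6567 and 6192 counts and a log2 ratio of 0.18 (0.13 to 0.23). CG8801 (Non1), a GTPase homologous to Nog1, had the most counts of any member, 18744 and 15164, and a log2 ratio of -0.04 (-0.08 to -0.01). Because CG8801 alone held much of the large subunit total, the summed counts of that step gave a 1.17-fold difference, against 1.61-fold for the polymerase I step, 1.55-fold for the small subunit and 1.42-fold for snoRNPs. As a log2 ratio the large subunit sum was at 0.223, not far above the 0.141 of all measured genes. None of these sums takes transcript length or level into account. By the corrected ratios of their genes, snoRNPs had a median of 0.48 and the polymerase I step 0.45. The small subunit was at 0.43 and the large subunit at 0.35. On that measure the polymerase I and small subunit steps did not stand above snoRNPs.

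For 6 members no step was assigned. Surf6, a nucleolar factor of ribosomal RNA processing, had 1192 and 1318 counts, a log2 ratio of 0.41 (0.29 to 0.52). The gene vito (viriato), a Nol12 homolog needed for nucleolar structure and growth in flies, had 353 and 335 counts, a log2 ratio of 0.19 (-0.03 to 0.41), an interval that holds 0. CG12050 had 1483 and 1769 counts, a log2 ratio of 0.52 (0.42 to 0.62), and l(2)34Fd had 945 and 1077, a log2 ratio of 0.45 (0.32 to 0.58). Both were near the median of the list.

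The members with the fewest counts, without regard to length, were in the same group. CG7137 had 330 and 327 counts, a log2 ratio of 0.25 (0.02 to 0.47). Bka had 352 and 232 counts and the lowest ratio of the list at -0.34 (-0.59 to -0.10), 0.79-fold. Bka has a short transcript, of 758 bases by its median in BDGP6, and after correction for length and level it was at -0.12.

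Levels per length spanned a wide range within each library. In the control, the normalised count per kilobase went from 200 for l(3)72Dn to 7682 for CG8801, with a median of 936, and in the brat RNAi library the median was 1331. Over all measured genes those medians were 232 and 238. The per-kilobase mean level of 23 members was above that of at least 80% of measured genes. After CG8801 the most abundant in the control were the snoRNP genes Fib at 5466, hoip at 4831, Nop60B at 3659, Nop56 at 3175 and nop5 at 2942. The polymerase subunits were far scarcer, with RpI1 at 751 and RpI135 at 371. In the brat RNAi library Fib, at 7464, stood level with CG8801 at 7450, and Nop60B, at 6033, stood above hoip at 5275.

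**Figure D2:**
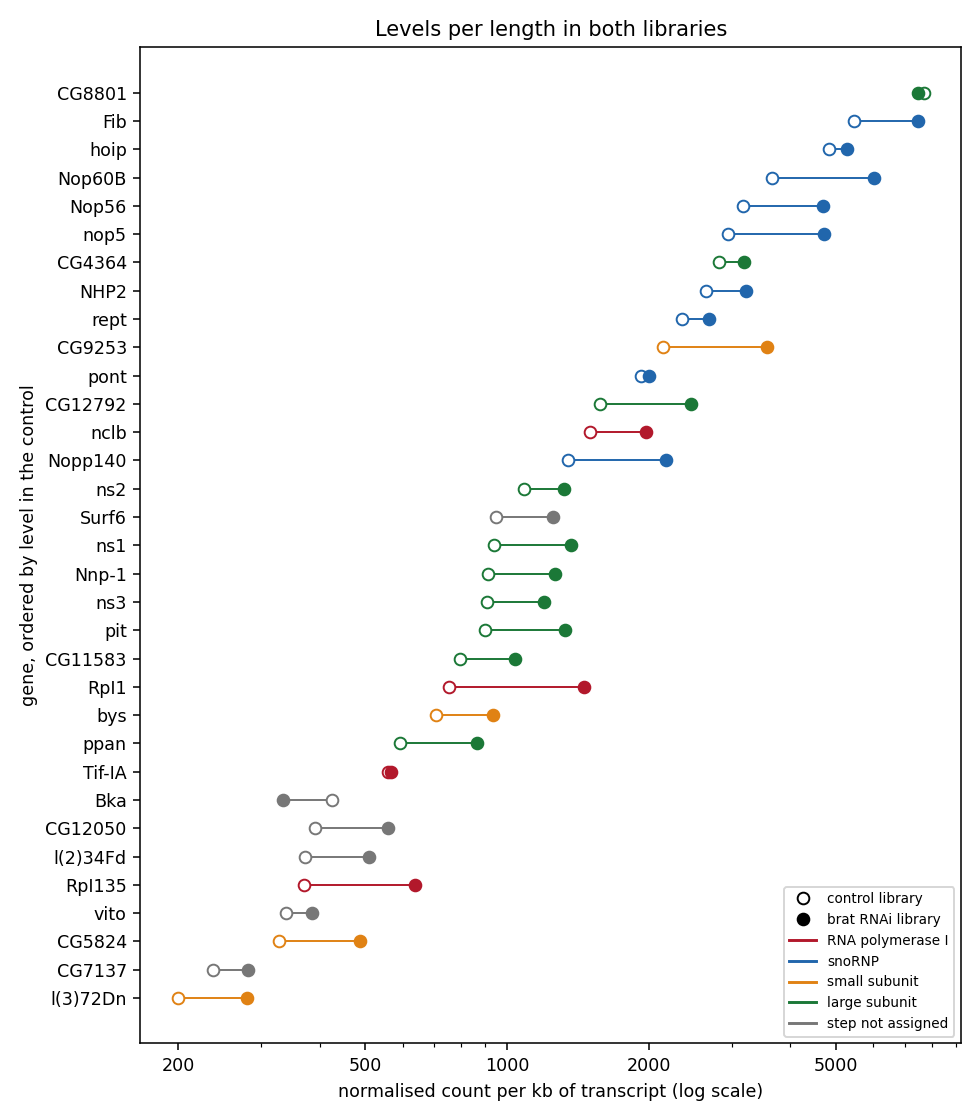
Normalised count per kilobase of transcript (x axis, log scale) of each member in the control library (open circles) and the brat RNAi library (filled circles), with genes ordered by their control level and coloured by step. CG8801 is at the top with 7682 and 7450, the snoRNP genes follow, and RpI1 moves from 751 to 1456.

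The ratio followed transcript length in these libraries, for members as for other genes. Over the 9097 measured genes with a length, Spearman's rho between the ratio and length was 0.41, and over the 33 members it was 0.52. Genes share their library and are not independent, so these are descriptions. The median log2 ratio of all measured genes went from -0.24 in the shortest decile of transcripts to 0.32 in the longest. Members fell in 9 of the 10 deciles, and in each of the 9 their median lay above that of all genes. Some of these medians rest on few genes: deciles 2 and 10 held 1 member each and decile 7 held 2. Thus the short genes hoip, NHP2 and Bka had a median of 0.13 in the shortest decile, and RpI1, alone in the longest, was at 0.95.

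When the median of measured genes sharing a length decile and a level decile was subtracted, the result left the members' median at 0.40, with 30 of 33 above 0. Each subtracted median came from at least 53 genes. The highest corrected ratios were then 0.75 for CG9253, 0.65 for CG12792 and 0.63 for nop5, the 3 members still past 1.5-fold. RpI1, at 0.50, was no longer the first. NHP2 went from 0.28 to 0.49 and hoip from 0.13 to 0.34, so that the box C/D core genes lay between 0.34 and 0.63. The genes below 0 after correction were CG8801 at -0.19, Bka at -0.12 and Tif-IA at -0.10.

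**Figure D3:**
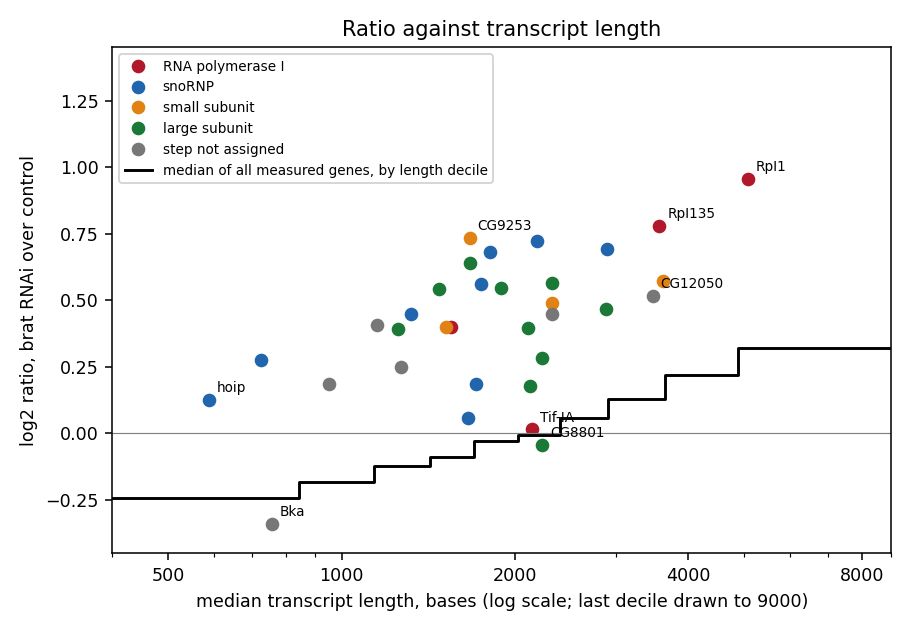
Log2 ratio of brat RNAi over control (y axis) against the median transcript length of each member (x axis, log scale), coloured by step, with the median of all measured genes in each length decile as a black line. Most members lie above the line at every length; CG8801 and Bka lie below it, and RpI1 is the longest and highest.

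Other factors of the same pathway gave similar values. A list of 28 further ribosome biogenesis genes, all measured, was also chosen with earlier results of these data known. It had a median log2 ratio of 0.43. Of its intervals 24 (85.7%) lay above 0, against 30.7% of all measured genes, and 2 (7.14%) below, against 24.3%. Among measured genes at or above the lowest member level, 46.5% had an interval above 0 and 22.8% one below. Of the 28 genes, 7 (25%) were at least 1.5-fold higher, against 5.93% of all measured genes and 7% of those at or above that level. None was at least 1.5-fold lower, against 8.32% and 1.39% in the same order. After correction for length and level its median was 0.34.

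The highest uncorrected ratios of those 28 belonged to small subunit factors. The helicase gene kz (kurz, the DHX37 homolog) was at 0.75 (0.64 to 0.86), l(2)k09022, the HEATR1 homolog, at 0.72 (0.65 to 0.79), and mbm (mushroom body miniature), a nucleolar protein needed for small subunit biogenesis in fly neuroblasts, at 0.71 (0.61 to 0.81). The lowest were CG18316 (udd), a factor of polymerase I initiation, at -0.49 (-0.70 to -0.27), CG7637 (Nop10), the smallest H/ACA protein, at -0.20 (-0.34 to -0.06), and the DDX56 helicase gene Hlc at 0.04 (-0.05 to 0.12). A pair of further polymerase I genes in this list, looked up after the values were seen, were CG6241 (TAF1B), a factor of initiation, at 0.44 (0.31 to 0.57), and the subunit gene RpI12 at 0.16 (-0.14 to 0.47). The intervals of Tif-IA, udd, TAF1B and RpI12 all lay below those of RpI1 and RpI135, whose transcripts are longer than the 530 bases of RpI12. After correction for length and level RpI12 was at 0.44 and TAF1B at 0.29, nearer to RpI1 at 0.50 and RpI135 at 0.56, while udd was at -0.31 and Tif-IA at -0.10.

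Ribosomal protein genes had medians near or below 0 before correction for length and level. The products of the cytosolic ones are those that these factors assemble. The 83 measured cytosolic ribosomal protein genes had a median log2 ratio of -0.09, and 0.01 after correction for length and level. Of their intervals 9 (10.8%) lay above 0, against 30.7% of all measured genes, and 68 (81.9%) below, against 24.3%. The median of their mean normalised counts was 30734, against 467 over all measured genes, and abundant genes have narrow intervals. After correction, 45 of the 82 with a corrected value were above 0. The 71 mitochondrial ribosomal protein genes had a median of 0.04 (-0.10 with total gene counts), and 0.19 after correction. Cytosolic ribosomal protein genes have short transcripts, with a median of 698 bases against 1813 for the members. The difference between the lists was not tested, since there was 1 library per group.

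**Figure D4:**
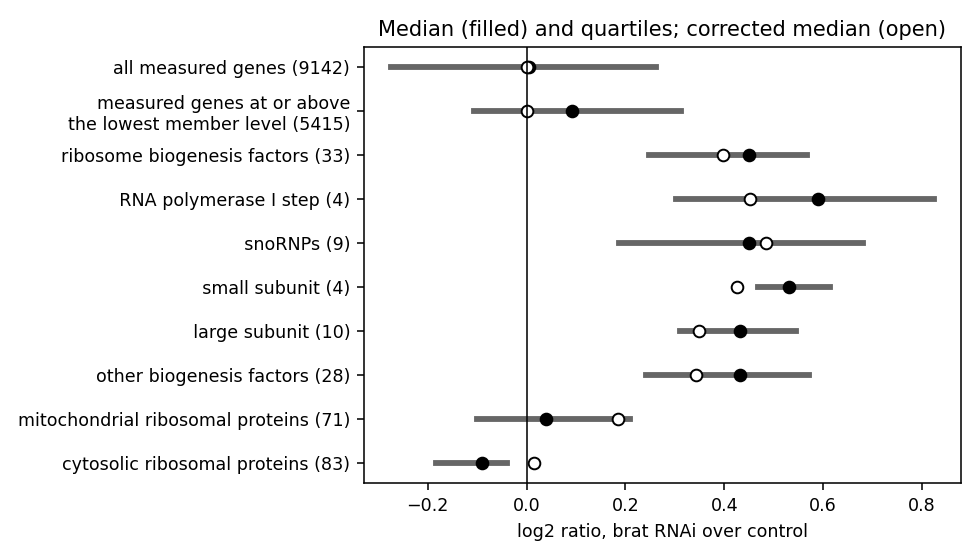
Median log2 ratio of brat RNAi over control (x axis, filled points) with the range from the lower to the upper quartile (bars), and the median after correction for transcript length and level (open points), for gene groups on the y axis with the number of measured genes. The 33 ribosome biogenesis factors at 0.45 and the 28 other biogenesis factors at 0.43 lie right of all measured genes at 0.00 and of the ribosomal protein genes.

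Markers of cell types moved with the libraries too. The summed normalised counts of the 8 type II neuroblast and lineage markers were 45542 for the control library and 60098 with brat RNAi, 1.32-fold, with 6 of 8 intervals above 0 and none below. Most of either sum was mira, with 24012 and 32542 and a log2 ratio of 0.44. The markers were not alike: dpn was at 0.98 and pnt at 0.91, but Sp1 at -0.02 and erm at -0.05. The members' own sum differed by 1.34-fold, and that of all measured genes by a log2 ratio of 0.141. Whether the marker and member sums are linked was not tested. Hemocyte markers (4 genes) summed to 5830 and 7897, with 2 intervals above 0 and 1 below. Neuron markers (4 genes) summed to 3993 and 3947, and glia markers (4 genes) to 10146 and 10552, in each with 1 interval above 0 and 1 below.

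Female germline, yolk and muscle markers had fewer counts with brat RNAi. The 6 female germline and yolk genes summed to 2125 and 59.1, with all 6 intervals below 0 and osk at 0 counts in the brat RNAi library. The 4 muscle genes summed to 361 and 149, all 4 below 0, and the 3 fat body genes to 76.7 and 43.8, with Lsp1beta below 0, Fbp1 above it and the interval of Lsp2 holding it. The part of these cells in the members' ratios was not tested. Myc (dm) had 1896 and 3478 counts, a log2 ratio of 1.14 (1.06 to 1.22), and was at 0.76 after correction for length and level.

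Position and gene structure varied among the members. They lay on arm 2L (10 genes), 2R (8), 3R (7), 3L (6) and the X (2), by the BDGP6 annotation. In that annotation 5 members enclose snoRNA genes on their own strand: Nop60B with 7, and Fib, nop5, pit and CG9253 with 1 each. Exons of 9 members overlap those of another gene, by no more than 6.54% of their length except for CG5824. The 24 members with no such overlap had a median log2 ratio of 0.40.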

How the data were processed

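The authors deposited 1 file of raw read-pair counts by gene for either library. Per the file headers, their comparison table holds base means (normalised counts, a non-negative signal), log2 fold changes and adjusted p-values. The submitters' processing notes name DESeq 1.8.3, HTSeq, TopHat 1.4.1 and BWA 0.6.1; the role of each tool and the strand setting are not given in these sources. The header of the deposited table names a FlyBase release 5 annotation, so no coordinates are printed; BDGP6 served for names, transcript lengths (99.5% of measured genes), arms and gene overlaps.

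The 5 categories assigned to no gene (22.7% of the control and 27.2% of the brat RNAi table) stayed out. Size factors were 1.09 and 0.913. All 10987 finite log2 values of the deposited table equalled those computed here within 1e-06. Intervals are 95% exact (Clopper-Pearson) and, as read pairs are not molecules, cover counting error only. With no residual degrees of freedom no test was run. The members and lists were chosen with earlier results of these data known. Every member was named; of the other 28 factors, the 3 highest and the 3 lowest, plus TAF1B and RpI12, chosen after their values were seen. On Poisson counts simulated for 9132 genes in this comparison, 95.7% of intervals of unchanged genes held 0. Such counts carry counting error only, so this checks the computation and cannot measure variation between libraries. Alternatives were total count, TMM and upper-quartile scaling (edgeR 4.0.16), the correction for length and level, minimum counts, and leaving out overlapping genes or hoip, the last chosen after seeing the data. Python 3.11.15 and scipy 1.17.1 were used.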

Additional observations from a re-analysis of the deposited data

Results flagged for a closer look

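The share of read pairs outside annotated features, which no comparison uses, was 26.6% (exact binomial interval 26.5 to 26.6) for the brat RNAi table and 22.0% for the control table. The higher share in the brat RNAi table is the reason for naming it; 1 library per group gives no measure of how usual such a gap is.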

How the results depend on the processing

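The scaling moved the ratios of all genes alike: total gene counts put the median of all measured genes at -0.14 and upper-quartile scaling at -0.10, and the members' median stayed 0.45 above it under both, as it did with TMM. The members' median itself was 0.31 with total gene counts and 0.34 with upper-quartile scaling. It was 0.40 after correction for length and level and 0.40 without genes whose exons overlap another gene. Leaving out overlapping genes removes 9 members, with log2 ratios from 0.28 for ns2 to 0.95 for RpI1. At least 1.5-fold apart were 3 members with total gene counts, 4 with upper-quartile scaling, 3 after correction and 4 without overlapping genes, in place of 7; the share of all measured genes at least 1.5-fold higher was 2.89%, 3.42%, 5.34% and 5.93% in the same order. That last setting drops RpI1, CG9253 and Nopp140, whose overlaps are 7, 10 and 21 bases. With total gene counts hoip, at -0.014, reversed its sign. No member was 2-fold apart, and between 21 and 30 had an interval excluding 0, under the settings run. TMM, both minimum counts and leaving out hoip kept the medians and counts close, and the median of the other 28 factors ranged from 0.29 to 0.44. No paired analysis was possible because each group was 1 library, and for the same reason no replicate could be left out.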
